A study of Mus musculus with 70 samples.

Results

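The dorsal hippocampus of mice that had already exercised was compared with and without 2 renewed days of wheel running, in 20 of the 70 libraries of the series. Libraries were chosen by the exercise pattern in their labels. Adult male C57BL/6J mice, housed singly, ran on a voluntary wheel for 14 days and then had no wheel for 7 days. In the 14-7-2 group (10 libraries from 10 mice) the wheel came back for 2 days, and in the 14-7-0 group (10 libraries from 10 mice) it did not. All of these mice then explored objects for 3 min in the object location memory (OLM) task, a session meant to be too short for lasting memory, and tissue was collected 1 h later. Neither group has an untrained counterpart with the same running history among the groups of the series, so every value describes the tissue after training. Running was voluntary, and the paper reports as a caveat that the distance run in the initial period differed among its sequenced groups. Distances were not analysed here, so whether the compared groups were matched in earlier running was not tested. Trained mice without earlier running, either sedentary (0-0-0) or with 2 days of running only (0-0-2), served as a side comparison (10 libraries each).

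In the brain, cholesterol is made locally, because lipoproteins in the blood hardly cross the blood-brain barrier. Its synthesis runs from acetyl-CoA through mevalonate, isoprenoid diphosphates and squalene to lanosterol and cholesterol, and its genes are switched on together by the transcription factor SREBP-2 when membranes are low in sterol. In the hippocampus, running and learning are also known for changes in neurotrophin genes such as Bdnf and in immediate early genes, which are transcribed within minutes of neuronal activity.

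Values were FPKM, fragment counts scaled to the length of the gene and to the mapped fragments of the library, so levels of different genes can be set side by side. The table lists 24346 genes, and the 12994 whose mean over the 70 libraries reached 1 FPKM were tested on log2(FPKM + 0.1) with limma, and log2 differences on this scale understate changes of low genes. Each group had 5 libraries from each of 2 harvest cohorts, and tissue was collected on separate days. In 14-7-0 replicate 4, 10279 listed genes were at 0, against 6243 to 7199 in the other 69 libraries. Its detected genes with a mean under 0.1 FPKM had a median of 0.414 FPKM, against 0.026 to 0.065 in the others. This library has full weight in the fit reported, and results are therefore also given without it. Further properties of single libraries touch the results: 14-7-0 replicates 4 and 9 and 14-7-2 replicate 9 followed the fitted values least closely (limma weights of 0.141, 0.304 and 0.162, where 1 is average), 14-7-0 replicates 0 and 3 were low in CA3 pyramidal cell markers, and choroid plexus genes were high in a few libraries. Markers of the hippocampal fields were present in both groups. Prox1, a transcription factor of dentate granule cells, had a median of 21.9 FPKM in 14-7-0 and 25.0 in 14-7-2, and Wfs1, an endoplasmic reticulum protein abundant in CA1 pyramidal cells, had 74.9 and 53.2.

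Across all genes the groups differed little. At an unadjusted p under 0.05, 264 of 12994 genes (2.03%) were higher in 14-7-2 and 436 (3.36%) were lower, where uniform p-values would give 649.7 genes in both directions together. "Rose" and "fell" refer to this threshold below, and the shares of 2.03% and 3.36% apply beside the count of every list in this fit. Other fits had other shares. With the limma library weights 647 of the 12994 genes rose and 845 fell. Without the 3 libraries of lowest weight 595 rose and 735 fell. No gene had a Benjamini-Hochberg adjusted p under 0.05 with limma, and Cyber-T, the kind of test the study used, rewritten here from its formula, gave 0 as well (181 up and 272 down without adjustment). Zfp180 came closest, with an adjusted p of 0.0751. Without 14-7-0 replicate 4, 251 genes (1.93%) rose and 499 (3.84%) fell, with 0 adjusted calls, and 181 up-regulated and 347 down-regulated genes were shared by both fits. Harvest cohort 1 taken alone had 263 genes up and 279 down, and cohort 2 had 277 up and 399 down. Of these genes 12 rose in both cohorts and 33 fell in both. The log2 differences of the cohorts had a Pearson r of 0.0456 across the 12994 genes, which are not independent replicates.

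Genes of cholesterol synthesis were higher after the 2 renewed days of running. Of 25 listed genes 24 were tested, and 17 rose and 0 fell, against 2.03% and 3.36% of all genes. All 24 had a positive difference, with a median log2 difference of 0.24, where the median of all genes tested was 0.0033. Those that rose covered most of the route. Hmgcs1 lies on the way to mevalonate, Idi1 and Fdps make the isoprenoid diphosphates, and Fdft1 and Sqle form squalene and its epoxide. Lss closes the ring to lanosterol, and Cyp51, Tm7sf2, Msmo1, Nsdhl, Hsd17b7, Sc5d and Dhcr7 convert lanosterol towards cholesterol. Stard4 and Insig1 encode a sterol carrier and the protein that holds SREBP in the endoplasmic reticulum.

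The start regions of 5 of the leading genes are shown because they let the shared letters of the group be seen. They are the 250 bases upstream of the annotated start in RefSeq (GRCm38.p6, the mm10 assembly), 5′ to 3′ on the strand of the gene: Hmgcs1 chr13:119690101-119690350 (plus strand), Idi1 chr13:8885356-8885605 (plus), Msmo1 chr8:64733579-64733828 (minus), Nsdhl chrX:72918271-72918520 (plus) and Sc5d chr9:42264301-42264550 (minus). Capitals mark CCAAT or its reverse complement ATTGG, the letters bound by the factor NF-Y, and in Hmgcs1 also TCACCCCAC, a match to TCACNCCAC, a core of the sterol regulatory element.
Hmgcs1: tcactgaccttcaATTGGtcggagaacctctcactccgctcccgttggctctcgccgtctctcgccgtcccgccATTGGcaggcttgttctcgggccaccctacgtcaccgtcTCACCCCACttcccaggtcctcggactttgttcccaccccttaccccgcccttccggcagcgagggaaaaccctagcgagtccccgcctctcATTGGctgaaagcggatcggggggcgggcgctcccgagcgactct
Idi1: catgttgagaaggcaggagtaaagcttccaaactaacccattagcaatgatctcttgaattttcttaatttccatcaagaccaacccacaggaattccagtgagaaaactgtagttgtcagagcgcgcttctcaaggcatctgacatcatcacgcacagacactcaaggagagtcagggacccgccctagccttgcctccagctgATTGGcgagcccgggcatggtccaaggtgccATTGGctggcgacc
Msmo1: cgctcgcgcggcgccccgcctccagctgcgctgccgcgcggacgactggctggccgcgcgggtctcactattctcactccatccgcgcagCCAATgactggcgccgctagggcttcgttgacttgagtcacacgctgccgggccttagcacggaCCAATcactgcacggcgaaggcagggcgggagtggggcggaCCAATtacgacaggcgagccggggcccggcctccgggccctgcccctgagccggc
Nsdhl: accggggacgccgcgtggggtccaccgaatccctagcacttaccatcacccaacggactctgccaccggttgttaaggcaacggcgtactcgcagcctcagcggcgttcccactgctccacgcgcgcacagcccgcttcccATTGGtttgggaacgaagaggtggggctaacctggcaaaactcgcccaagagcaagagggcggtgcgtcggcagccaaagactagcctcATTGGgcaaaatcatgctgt
Sc5d: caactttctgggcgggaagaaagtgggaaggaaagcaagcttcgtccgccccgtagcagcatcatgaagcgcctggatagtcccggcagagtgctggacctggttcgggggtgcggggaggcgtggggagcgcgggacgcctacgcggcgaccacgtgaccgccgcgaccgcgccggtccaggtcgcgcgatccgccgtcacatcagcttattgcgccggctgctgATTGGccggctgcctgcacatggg
Hmgcs1 and Msmo1 each held 3 CCAAT matches, Idi1 and Nsdhl 2, and Sc5d 1. Of the 25 cholesterol synthesis genes 17 had a window, and 16 of these (94.1%) held CCAAT on either strand, compared with 37.5% of the 27025 genes with a window and 40.3% of the 9814 tested genes with one. The share was 44.1% of 202 genes that rose and 45.7% of 315 that fell. Among endoplasmic reticulum chaperone and stress genes, which did not rise, 22 of 24 genes with a window (91.7%) held CCAAT. TCACNCCAC was in 1 of the 17 genes and in 1.22% of all genes with a window. A gene with more than 1 window was counted if any of them held the match. The CCAAT and TCACNCCAC matches did not overlap. Such matches describe the letters of the windows and are not evidence of binding.

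Hmgcs1, the enzyme that condenses acetyl-CoA units on the way to mevalonate, ranged from 57.1 to 95.8 FPKM in 14-7-0 (median 69.6) and from 69.4 to 108 in 14-7-2 (median 88.2). The ranges overlapped, with 3 of 10 14-7-2 libraries above every 14-7-0 library and 9 above their median. The log2 difference was 0.33 ± 0.0857 (SE, n = 10 per group; unadjusted p = 0.000931, limma).

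Idi1, which interconverts the isoprenoid diphosphates, ranged from 17.4 to 31.7 FPKM in 14-7-0 (median 21.005) and from 22.5 to 34.8 in 14-7-2 (median 27.4). All 10 14-7-2 libraries lay above the 14-7-0 median, and 14-7-0 replicate 1 stood among the 14-7-2 values. The log2 difference was 0.38 ± 0.0923 (p = 0.000523). Msmo1, a sterol methyl oxidase, went from a median of 45.8 FPKM (38.6 to 63.1) in 14-7-0 to 56.6 (50.9 to 73.8) in 14-7-2, a log2 difference of 0.37 (p = 0.000807). Nsdhl, a sterol dehydrogenase that acts in the same demethylation, had 9.82 FPKM (8.32 to 13.4) and 12.5 (10.6 to 15.4), with 0.28 (p = 0.00126). For both, every 14-7-2 library was above the 14-7-0 median while the ranges overlapped.

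Sc5d, a desaturase late in the pathway, had the smallest standard error of the group. It ranged from 24.6 to 30.1 FPKM in 14-7-0 (median 26.2) and from 27.6 to 34.3 in 14-7-2 (median 30.4), with a log2 difference of 0.19 ± 0.0473 (p = 0.000596), and 6 of 10 14-7-2 libraries exceeded all of 14-7-0. The other plotted members that rose had log2 differences between 0.15 (Lss, p = 0.0408) and 0.32 (Sqle, p = 0.00187). The 7 members that did not pass included Mvd (0.27, p = 0.22), Acat2 (0.26, p = 0.102), Mvk (0.19, p = 0.378), Srebf2 (0.07, p = 0.637), Ebp (0.05, p = 0.571) and Pmvk (0.04, p = 0.72). Without the 3 libraries of lowest weight, a fit chosen after seeing the data, Mvd, Mvk, Pmvk and Acat2 rose. Their p-values there were 2.2e-05, 0.0009, 0.00613 and 0.0282 (limma). In that fit Srebf2 (p = 0.197) and Ebp (p = 0.784) did not pass either. Srebf2, which encodes SREBP-2 itself, was thus not distinguishable between the groups. No single member passed adjustment over all genes, and the smallest adjusted p of the group was 0.487.

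**Figure D1:**
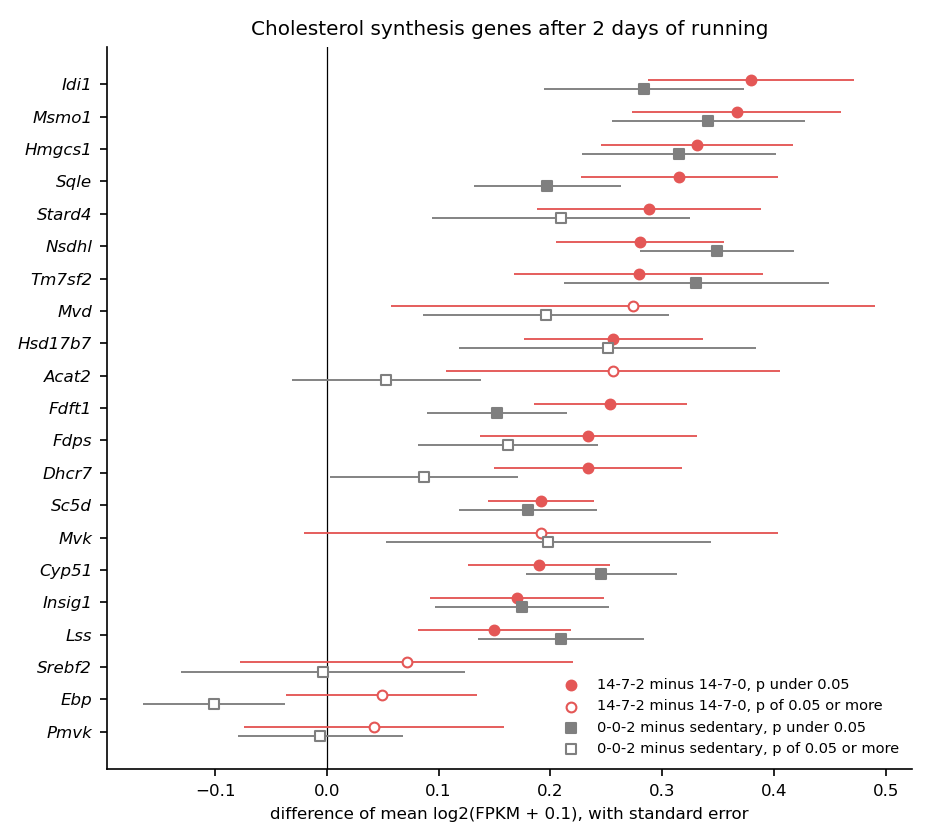
Difference of mean log2(FPKM + 0.1), with its standard error, for 21 of the 24 tested cholesterol synthesis genes (rows); red circles show 14-7-2 minus 14-7-0 and gray squares 0-0-2 minus sedentary, filled where the unadjusted p was under 0.05 (10 libraries per group). All 21 red circles lie to the right of 0, and 15 are filled.

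Acss2, which makes acetyl-CoA from acetate in the cytosol and nucleus, had the smallest p of the genes that rose. It ranged from 16.3 to 23.6 FPKM in 14-7-0 (median 19.0) and from 20.6 to 28.6 in 14-7-2 (median 23.6). All 10 14-7-2 libraries were above the 14-7-0 median and 5 above its whole range, a log2 difference of 0.34 ± 0.0736 or 26.9% (p = 0.000142). It was the only member of 15 fatty acid synthesis genes that rose, while none fell. The median of that list, which was added after the differences were seen, was 0.05. The most abundant of them did not pass: Scd2, a fatty acid desaturase, had a log2 difference of -0.03 (p = 0.476), Fads1 0.09 (p = 0.0692) and Fads2 0.06 (p = 0.369).

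Genes of cholesterol efflux, transport and turnover, a list added after the differences were seen, went the other way or did not pass. Of 18, 0 rose and 2 fell, against 2.03% and 3.36% of all genes, with a median of -0.09. Npc1, which releases cholesterol from late endosomes, ranged from 16.8 to 20.7 FPKM in 14-7-0 (median 17.7) and from 13.8 to 17.7 in 14-7-2 (median 15.5), and 8 of 10 14-7-2 libraries lay below all of 14-7-0. It fell by 0.22 on the log2 scale (p = 0.000262). Abca1, the exporter of cholesterol to apolipoproteins, fell by 0.21 (p = 0.0462), from a median of 6.30 to 5.12 FPKM. Apoe, the main apolipoprotein of the brain, had -0.25 (p = 0.178), and Cyp46a1, the neuronal cholesterol hydroxylase, 0.00 (p = 0.994).

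The 24 synthesis genes were summarised per library by a score, the mean over the genes of log2(FPKM + 0.1) minus the mean of the gene over 70 libraries. The score ranged from -0.34 (replicate 0) to -0.03 (replicate 1) in 14-7-0, with a median of -0.18. In 14-7-2 it ranged from -0.23 (replicate 9) to 0.32 (replicate 3), with a median of 0.06. The libraries at the ends of the score were also at the ends of the CA3 pyramidal cell marker score. Replicates 0 and 3 of 14-7-0 were lowest of their group in both (-0.34 and -0.23, with CA3 scores of -1.44 and -1.28), and replicates 3 and 0 of 14-7-2 were highest of theirs in both (0.32 and 0.17, with 0.81 and 0.47). The part of the hippocampal fields in the score was not tested. Of the 10 14-7-2 libraries 7 were above every 14-7-0 library, and the exception at the low end, replicate 9, is the library with the highest choroid plexus level. Their summed level was 415.6 to 548.6 FPKM in 14-7-0 (median 473.2) and 509.1 to 675.6 in 14-7-2 (median 555.5). In cohort 1 the score medians were -0.19 in 14-7-0 and 0.15 in 14-7-2, and in cohort 2 they were -0.13 and 0.03.

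Set among all groups, 14-7-0 had the lowest median score. The others were -0.10 in home cage, -0.06 in 14-14-0, -0.03 in sedentary, 0.08 in 14-0-0 and 0.18 in 0-0-2. The median of 14-7-2 lay between sedentary and 14-0-0, inside the range of both. All 10 14-7-0 libraries were below every 0-0-2 library.

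**Figure D2:**
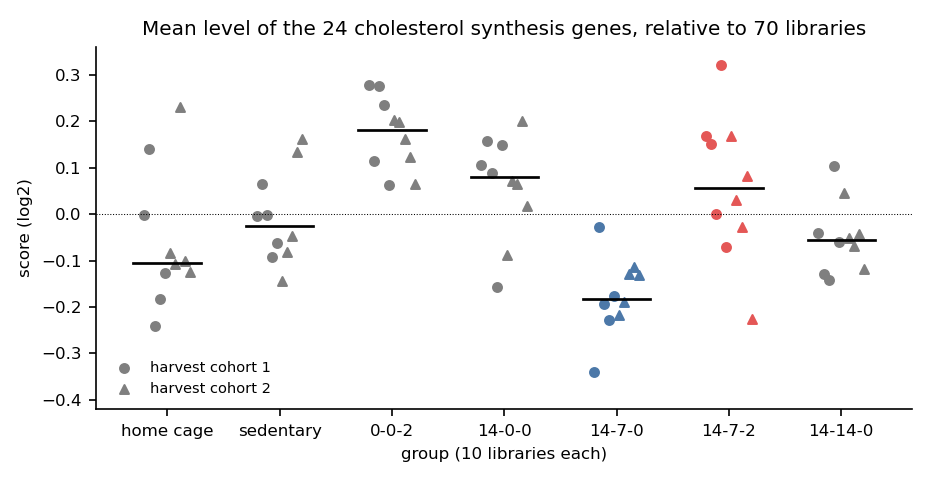
Score of the 24 cholesterol synthesis genes (mean log2 level relative to the 70 libraries, vertical axis) in each library of the 7 groups, circles for harvest cohort 1 and triangles for cohort 2, with bars at group medians. The 14-7-0 libraries (blue) lie between -0.34 and -0.03 and 7 of the 10 14-7-2 libraries (red) lie above all of them.

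In each set of libraries tried, 0 of the 24 fell. The count of 17 was 18 without 14-7-0 replicate 4, 22 without the 3 libraries of lowest weight, and 15 without 14-7-0 replicates 0 and 3. Without replicates 0 and 3 of both groups it was 11, with 22 of 24 positive and a median of 0.17. Of all 12994 genes 251, 595, 148 and 250 rose in these fits, in the same order. The count of 17 lay between 15 and 19 when single libraries were left out. In cohort 1 alone 11 of the 24 rose and in cohort 2 alone 8, from 5 libraries per group each. In bulk tissue, a change in the number of cells of a type cannot be told apart from a change in RNA per cell, and this applies to every list below.

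Outside this pathway the genes that rose with the smallest p in both fits were Rbpms2, Kcne1l, Me3 and Smyd4. Me3, a mitochondrial malic enzyme, ranged from 8.07 to 10.3 FPKM in 14-7-0 (median 8.72) and from 8.63 to 13.0 in 14-7-2 (median 11.1). Apart from 3 libraries, 14-7-2 lay above the whole 14-7-0 range, with a log2 difference of 0.30 ± 0.0753 (p = 0.000788). Smyd4, a SET and MYND domain protein, rose by 0.18 (p = 0.00179), with 8 of 10 libraries above all of 14-7-0. Kcne1l, a potassium channel accessory subunit, and Rbpms2, an RNA-binding protein, were low in level. Their medians went from 2.28 to 3.27 and from 1.31 to 1.80 FPKM, with log2 differences of 0.56 (p = 0.000865) and 0.50 (p = 0.000768). In 14-7-0 replicate 4 Rbpms2 was at 0.754 FPKM, below the other 9 libraries, and without it the log2 difference was 0.42 (p = 0.000716).

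Among the genes that fell, Zfp180, a zinc finger protein, had the smallest p of all genes. It ranged from 16.0 to 20.1 FPKM in 14-7-0 (median 17.2) and from 13.7 to 16.1 in 14-7-2 (median 14.6). The ranges touched only at their ends, since 9 of 10 14-7-2 libraries were below all of 14-7-0. It fell by 0.27 on the log2 scale (SE 0.0446, p = 5.78e-06), a difference of -17.1%, and was lower in both cohorts (-0.32 and -0.22).

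Gid4, a substrate receptor of the GID ubiquitin ligase that acts on gluconeogenic enzymes in yeast, had a median of 26.8 FPKM (20.9 to 29.4) in 14-7-0 and 22.2 (20.5 to 24.6) in 14-7-2. The low end of 14-7-0 was replicate 4, and without it the p moved from 0.000382 to 7.03e-06 with a log2 difference of -0.27. Akt2, a kinase downstream of the insulin receptor, had 36.6 FPKM (30.2 to 43.0) and 30.6 (23.0 to 33.8), with -0.29 (p = 0.000402). Both genes lay below the 14-7-0 median in all 10 14-7-2 libraries.

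The other leading genes that fell had varied roles. Megf10, a phagocytic receptor of astrocytes, went from a median of 5.85 to 4.98 FPKM, a log2 difference of -0.25 (p = 0.000227), with 9 of 10 libraries below all of 14-7-0. Thbs4, a thrombospondin, went from 6.58 FPKM (4.58 to 9.002) to 4.61 (3.00 to 5.49), with -0.58 (p = 0.000178). Dlg1, a synaptic scaffold, differed by -0.14 (p = 0.00052), and Impact, a regulator of the translation kinase GCN2, by -0.18 (p = 0.000718). Hnrnph3, a splicing factor, differed by -0.21, Snhg12, a host gene of small nucleolar RNAs, by -0.31, Ankrd63 by -0.35 and Alox12b, a lipoxygenase, by -0.58. In each of these 8 genes every 14-7-2 library was below the 14-7-0 median. Sparcl1, a synapse-promoting protein of astrocytes, was the only gene of 12994 whose groups did not overlap. It was named for this after its values were seen, at 529 to 570 FPKM in 14-7-0 and 428 to 524 in 14-7-2, with a log2 difference of -0.14 (p = 0.00376, adjusted p = 0.534, limma).

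**Figure D3:**
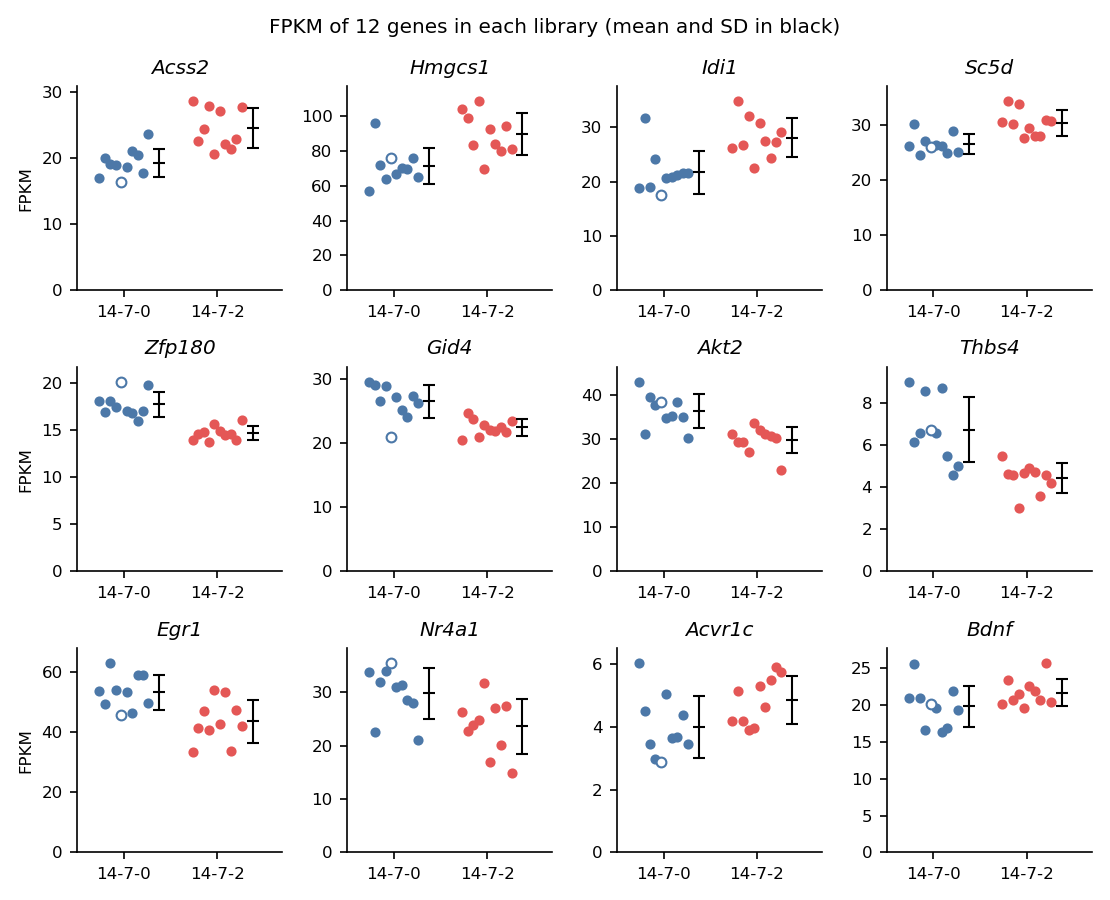
FPKM (vertical axes from 0) of 12 genes in each library of 14-7-0 (blue) and 14-7-2 (red), with mean and SD in black and 14-7-0 replicate 4 as an open circle. Acss2, Hmgcs1, Idi1 and Sc5d lie higher and Zfp180, Gid4, Akt2 and Thbs4 lower in 14-7-2, with partial overlap in each, while Acvr1c and Bdnf overlap widely.

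Immediate early genes were not higher after renewed running. Of 32 tested, 0 rose and 3 fell, against 2.03% and 3.36% of all genes, with a median of -0.05. Egr1, a zinc finger factor linked to memory, ranged from 45.6 to 63.0 FPKM in 14-7-0 (median 53.7) and from 33.6 to 54.2 in 14-7-2 (median 42.4). With 6 of 10 libraries below all of 14-7-0, it fell by 0.30 on the log2 scale (p = 0.00252), and by the same amount in each cohort. The orphan nuclear receptors Nr4a1 and Nr4a2 fell by 0.35 (p = 0.0119) and 0.36 (p = 0.0091), from medians of 31.2 and 17.3 FPKM to 24.4 and 12.7. Fos and Arc, named here as the best known members, overlapped: Fos lay at 2.80 to 5.94 FPKM in 14-7-0 and 2.22 to 5.68 in 14-7-2 (p = 0.0841), and Arc at 21.3 to 39.97 and 13.2 to 38.4 (p = 0.143).

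Of 24 late activity-induced genes 1 rose and 2 fell, against 2.03% and 3.36% of all genes, so these small counts are given for the genes and not for the list. Ptgs2, the inducible cyclooxygenase, rose from a median of 9.06 to 12.2 FPKM (0.47, p = 0.0106), and every 14-7-2 library was above the 14-7-0 median. Tac1, a neuropeptide precursor, fell by 0.33 (p = 0.0154), and Sorcs3, a sortilin-family receptor, by 0.18 (p = 0.0374). Evening-phase clock genes had 0 up and 3 down of 14, with a median of -0.10. Bhlhe40, a clock repressor, went from 42.1 FPKM (33.2 to 57.1) to 34.6 (28.7 to 40.8), with -0.35 (p = 0.000845) and all 10 libraries below the 14-7-0 median. Hlf differed by -0.30 (p = 0.00891) and Ciart by -0.24 (p = 0.0416). None of 7 morning-phase clock genes and none of 20 glucocorticoid receptor and responsive genes passed.

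A few chaperones of the endoplasmic reticulum fell. Of 28 genes 0 rose and 4 fell (all genes, 3.36%), Hsp90b1 (-0.21, p = 0.00885), Calr (-0.21, p = 0.00175), Pdia6 (-0.14, p = 0.0394) and P4hb (-0.11, p = 0.021), and the median was -0.04. Calr, a calcium-binding chaperone, had 164 to 198 FPKM in 14-7-0 and 124 to 175 in 14-7-2, and 7 of 10 libraries were below all of 14-7-0. Of 20 heat shock and cold-inducible genes, Rbm3, a cold-inducible RNA-binding protein, rose (0.20, p = 0.0332) and none fell.

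The activin receptor Acvr1c, which the study follows, and Bdnf were looked at singly. Acvr1c ranged from 2.88 to 6.02 FPKM in 14-7-0 (median 3.65) and from 3.91 to 5.90 in 14-7-2 (median 4.88). All 10 14-7-2 libraries were above the 14-7-0 median, but none was above its highest library, replicate 0. The log2 difference was 0.29 ± 0.123 (n = 10 per group), with p = 0.028 in limma and 0.0336 in a two-sided permutation test of 100000 resamples (0.0672 adjusted over Acvr1c and Bdnf). Without 14-7-0 replicate 4, its lowest value, the difference was 0.24 with a permutation p of 0.0656. In cohort 1 the log2 difference was 0.16 and in cohort 2 it was 0.43.

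Bdnf ranged from 16.3 to 25.6 FPKM in 14-7-0 (median 19.9) and from 19.6 to 25.7 in 14-7-2 (median 21.1). The groups overlapped over most of their ranges, and the difference of 0.14 ± 0.0726 did not pass (p = 0.0768 in limma, 0.0824 by permutation). The cohorts gave 0.03 and 0.25.

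Around Acvr1c, of 19 receptors and Smads of the activin, TGF-beta and BMP family only Acvr1c rose and only Tgfbr1, the TGF-beta type I receptor, fell (-0.18, p = 0.0493), and the median was -0.02. Acvr1b, the other activin type I receptor, had -0.02 (p = 0.779) and the type II receptor Bmpr2 0.01 (p = 0.898). Of 20 ligands and antagonists 0 rose, while Bmp4 and the BMP antagonist Grem1 fell by 0.45 (p = 0.00269) and 0.49 (p = 0.045). Bmp4 was near 1 FPKM, at 0.914 to 2.10 in 14-7-0 and 0.557 to 1.18 in 14-7-2. Of 9 neurotrophins and receptors only Sorcs3 passed, downward.

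The study chose 21 genes as raised relative to sedentary in 14-7-2 and 14-0-0 but in none of its other exercise groups, 14-7-0 among them. Both groups compared here thus entered that choice, so the direction of these genes is not independent evidence. All 21 had a positive difference (median 0.14), and 5 rose, Necab3, Sprn, Acvr1c, Epha4 and Rragd. Necab3, a calcium-binding protein, went from 11.6 FPKM (9.55 to 15.7) to 14.1 (10.6 to 17.1), with 0.28 (p = 0.00375). Sprn, a prion-like protein of neurons, rose by 0.14 (p = 0.00614), with all 10 libraries above the 14-7-0 median. Epha4, an ephrin receptor, rose by 0.14 (p = 0.031) and Rragd, a GTPase of the mTORC1 nutrient pathway, by 0.17 (p = 0.0421). The cohorts differed in their counts, with 1 of the 21 rising in cohort 1 alone and 14 in cohort 2 alone, and without the 3 libraries of lowest weight 3 rose.

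Other genes tied to exercise gave few calls. Of 17 growth and metabolic factors 0 rose and 4 fell, against 3.36% of all genes. Igfbp4 and Igfbp5, which bind insulin-like growth factors, differed by -0.35 (p = 0.00228) and -0.27 (p = 0.0103). Clu, a secreted chaperone of astrocytes, ranged from 509 to 623 FPKM in 14-7-0 and from 341 to 563 in 14-7-2, with -0.25 (p = 0.00367) and 7 of 10 libraries below all of 14-7-0. Ctsb, a lysosomal protease, differed by -0.11 (p = 0.0341). Of 22 genes of lactate, ketone and glucose handling 3 fell, among them the lactate transporter Slc16a1 (-0.14, p = 0.0129) and Ldhb, a lactate dehydrogenase subunit (-0.15, p = 0.046).

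Synaptic and housekeeping lists had few calls. None of 10 AMPA and NMDA receptor subunits, 14 HDACs and corepressors, 37 complex I genes, 34 genes of complexes III to V and 13 neurogenesis genes passed. With library weights, however, 7 of the 37 complex I genes and 4 of the 34 of complexes III to V rose, and all members of both lists were positive. In that fit 647 of all 12994 genes rose. Of 12 GABA-A receptor subunits Gabra3 fell (-0.33, p = 0.0182). Of 79 cytosolic ribosomal protein genes 4 fell (Rpl21, Rpl31, Rps12 and Rps24) and the median was -0.11, but it was -0.02 with library weights.

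**Figure D4:**
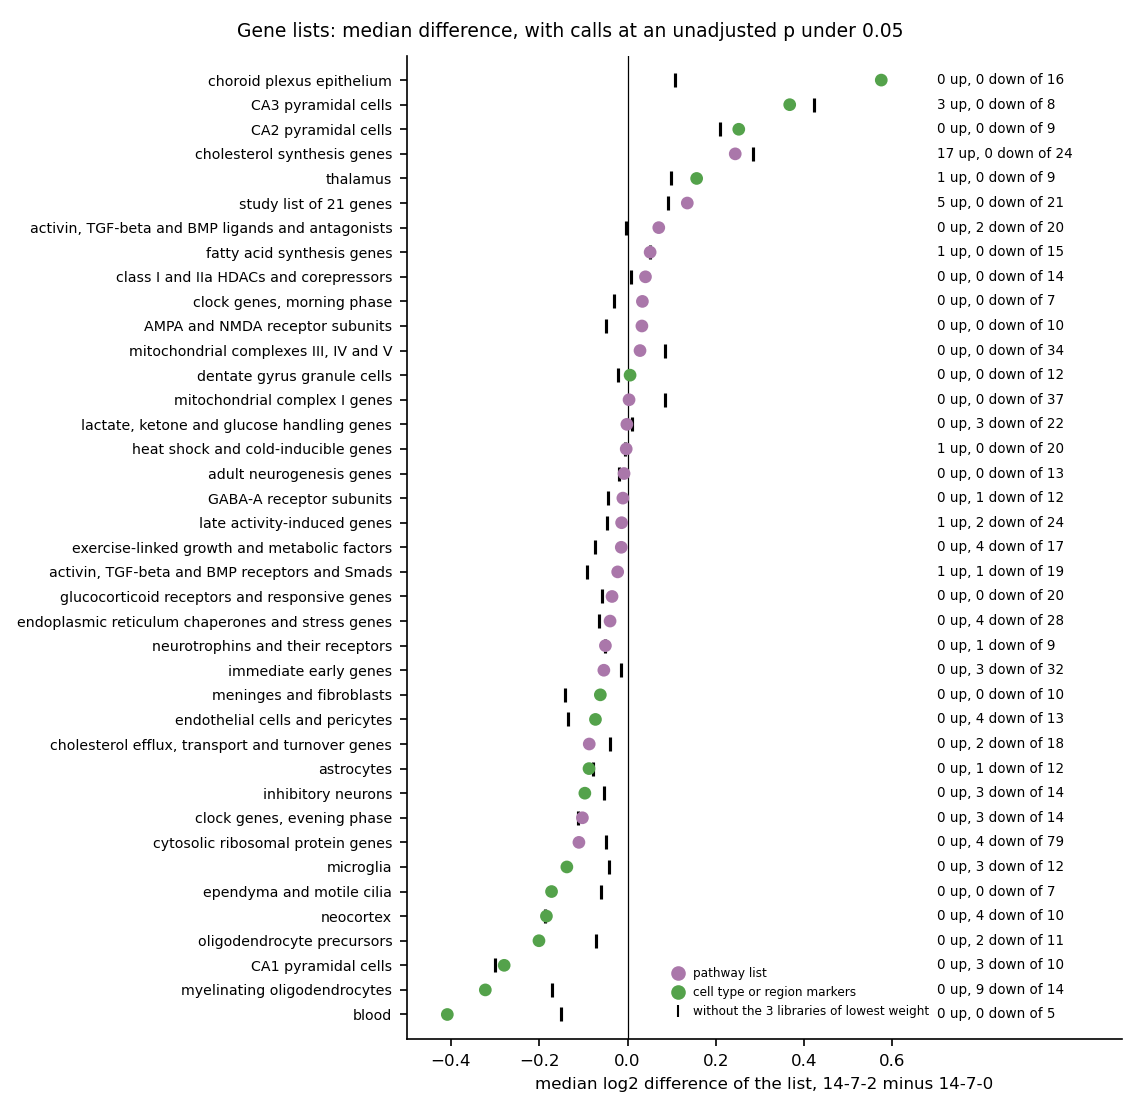
Median log2 difference (14-7-2 minus 14-7-0, horizontal axis) of 39 gene lists, purple for pathway lists and green for cell type or region markers, with black ticks for the value without the 3 libraries of lowest weight and counts of genes that rose or fell at the right. The cholesterol synthesis list has 17 of 24 genes up, and the extremes at the top and bottom, choroid plexus and blood, have 0 calls.

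Myelin genes were lower in 14-7-2, but this rested on part of the libraries. Of 14 markers of myelinating oligodendrocytes 0 rose and 9 fell, against 2.03% and 3.36% of all genes, with a median of -0.32 and all 14 negative. Mobp, a myelin basic protein of oligodendrocytes, ranged from 120 to 236 FPKM in 14-7-0 (median 150.3) and from 85.7 to 165 in 14-7-2 (median 132), with -0.33 (p = 0.0301). Cnp, a phosphodiesterase of myelin, had -0.32 (p = 0.0298), Ermn, a cytoskeletal protein, -0.33 (p = 0.014), and Gjb1, a gap junction protein, -0.41 (p = 0.0286). The list score ranged from -0.22 to 0.69 in 14-7-0 and from -0.60 to 0.24 in 14-7-2, and the summed level from 2780 to 4460 and from 1623 to 3868 FPKM. Of the 10 14-7-2 libraries, replicates 1, 5, 6, 7 and 9 were low.

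The count of 9 was 3 without 14-7-0 replicate 4, 1 without 14-7-0 replicate 9, 1 without 14-7-2 replicate 5, 2 without 14-7-2 replicate 7 and 3 without 14-7-2 replicate 1 or 9. Leaving out 14-7-0 replicate 6 gave 5. It was 1 without the 3 libraries of lowest weight and 0 with library weights. In cohort 1 alone 0 of 14 fell and in cohort 2 alone 10, so the list did not hold within both cohorts. Of 11 oligodendrocyte precursor markers Gpr17, a receptor of cells committed to myelination, fell (-0.26, p = 0.00306), as did Bmp4.

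Markers of the hippocampal fields also moved with the groups. Of 10 CA1 markers 0 rose and 3 fell, among them Wfs1 (-0.55, p = 0.00378) and Mpped1 (-0.26, p = 0.0423), with a median of -0.28. Of 8 CA3 markers 3 rose, Bok (0.78, p = 0.021), Iyd (0.89, p = 0.0445) and Cpne4 (0.43, p = 0.0416), with a median of 0.37. Over all genes 2.03% rose and 3.36% fell. The CA3 score of 14-7-0 replicates 0 and 3 was -1.44 and -1.28, while the other 18 libraries lay between -0.15 and 0.81. Without those 2 libraries 0 CA3 markers rose and 1 CA1 marker fell. None of 12 dentate granule cell markers and none of 9 CA2 markers passed. The dentate markers went in opposite directions in the cohorts: in cohort 1 alone 1 of 12 was positive (median -0.22), and in cohort 2 alone all 12 were positive and 6 rose (median 0.30). Replicates 0 and 3 of 14-7-2 had dentate scores of -0.57 and -0.61, while the other 8 lay between 0.03 and 0.39. Without replicates 0 and 3 of both groups, 7 of 12 dentate markers rose and 0 of 8 CA3 markers did. The part of the dissected fields in the other differences was not tested, and the cholesterol synthesis count was 15 of 24 without the 2 14-7-0 libraries and 11 of 24 without replicates 0 and 3 of both groups.

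**Figure D5:**
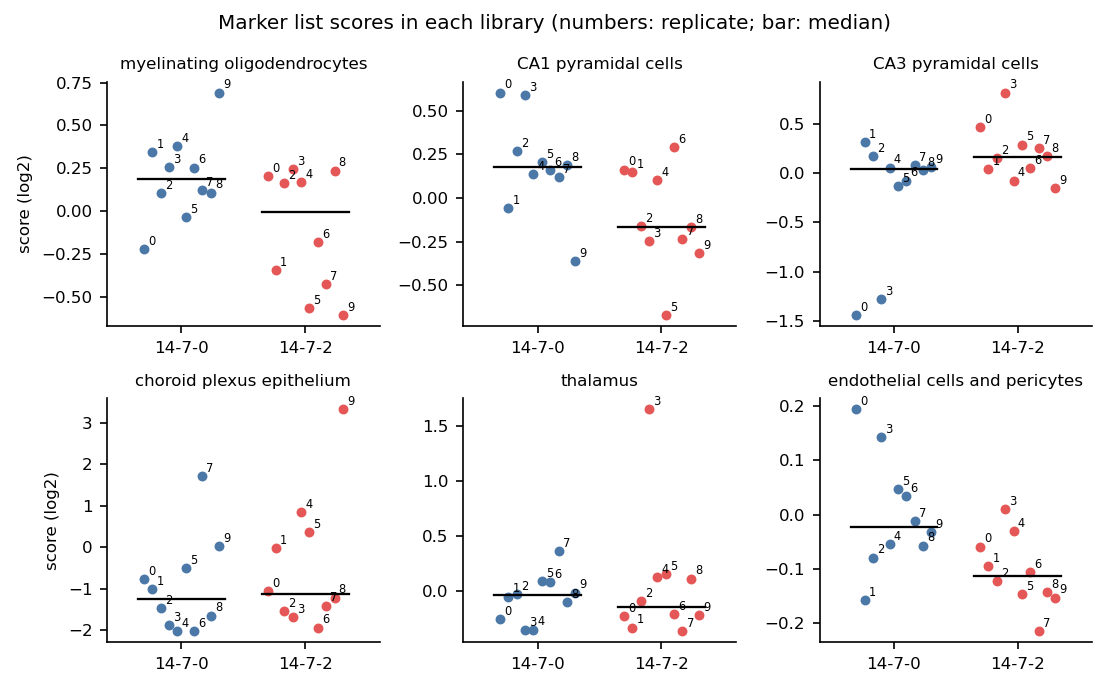
Score (mean log2 level relative to the 70 libraries, vertical axes) of 6 marker lists in each library of 14-7-0 (blue) and 14-7-2 (red), with the replicate number beside each point and bars at medians. Replicates 0 and 3 of 14-7-0 lie apart in CA3 markers, 14-7-2 replicate 9 in choroid plexus and 14-7-2 replicate 3 in thalamus.

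Other cell types gave smaller counts in 1 direction, where 3.36% of all genes fell. Of 14 inhibitory neuron markers 3 fell, Gad1 (-0.15, p = 0.00996), Gad2 (-0.15, p = 0.0477) and Vip (-0.35, p = 0.00889). Of 12 microglia markers Csf1r (-0.18, p = 0.00216), Cx3cr1 (-0.17, p = 0.00382) and Itgam (-0.14, p = 0.0278) fell, and all 12 were negative. Of 13 endothelial and pericyte markers Pecam1 (-0.21, p = 0.00636), Tek (-0.23, p = 0.00834), Vtn (-0.28, p = 0.0291) and Kcnj8 (-0.38, p = 0.0369) fell. Of 12 astrocyte markers only Slc1a3, a glutamate transporter, fell (-0.14, p = 0.00935). Of the inhibitory neuron markers 5 of 14 were positive, and of the endothelial and pericyte markers 4 of 13. In cohort 1 alone 0 of either list fell, and in cohort 2 alone 4 and 3 did. Of the microglia markers 1 fell in cohort 1 alone and 2 in cohort 2 alone.

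Tissue next to the hippocampus varied by library. Of 10 neocortex markers 4 fell, among them Lamp5 (-0.25, p = 0.00133), Tshz2 (-1.19, p = 0.0108) and Hs3st2 (-0.62, p = 0.023), and of 9 thalamus markers Ptpn3 rose (0.16, p = 0.017). Over all genes 3.36% fell and 2.03% rose. None of 16 choroid plexus, 7 ependyma, 10 meninges and 5 blood markers passed, though choroid plexus had the largest median of the lists (0.57). Its summed level was 103.9 to 2468 FPKM in 14-7-0 and 89.4 to 3503 in 14-7-2, and the highest libraries were replicate 7 and replicate 9. Ttr, its defining transcript, had medians of 72.4 and 79.2 FPKM. The part of these tissues in the differences was not tested.

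The question whether 2 days of running act differently after earlier exercise was addressed with 0-0-2 against sedentary, which shares no library with the present comparison. There, 148 of 12994 genes (1.14%) rose and 160 (1.23%) fell. Cholesterol synthesis genes again had 11 up and 0 down of 24, with a median of 0.20. The genes that rose in both comparisons numbered 25 (9.47% of 264 and 16.9% of 148), and 11 of these were cholesterol synthesis genes: Cyp51, Fdft1, Hmgcs1, Idi1, Insig1, Lss, Msmo1, Nsdhl, Sc5d, Sqle and Tm7sf2. Acss2, Necab3, Kcne1l, Rbpms2 and Rbm3 were among the others. The genes that fell in both numbered 48 (11.0% of 436 and 30.0% of 160), and included Zfp180, Gid4, Egr1, Calr, Pdia6, Ciart and Snhg12. Several were myelin genes, Mobp, Mal, Ermn, Cldn11 and Gjb1. Over all genes the log2 differences had a Pearson r of 0.0176 (n = 12994 genes, not independent replicates), and of -0.0696 without 14-7-0 replicate 4 and sedentary replicate 6. Sedentary replicate 6 was lowest of its group in dentate and CA1 marker scores (-2.625 and -1.91, medians 0.10 and -0.003). It was highest in myelin and thalamus scores (1.25 and 0.84, medians 0.13 and -0.01). Without it 161 genes rose and 166 fell in the first 2 days, with 11 cholesterol synthesis genes up. Why this library stood apart was not tested.

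For Hmgcs1, Msmo1 and Sc5d the values stood close together. Hmgcs1 had 0.33 after a history of running and 0.31 without one, Msmo1 0.37 and 0.34, Nsdhl 0.28 and 0.35, Sc5d 0.19 and 0.18, Acss2 0.34 and 0.26, and Egr1 -0.30 and -0.43. Further apart than the closest pairs were Idi1 (0.38 and 0.28), Sqle (0.32 and 0.20), Fdft1 (0.25 and 0.15) and Dhcr7 (0.23 and 0.09). In the test of the difference itself, no cholesterol synthesis gene had an unadjusted p under 0.05, and the smallest was 0.164 for Ebp, which does not show that the changes were equal. Myelin genes had 7 of 14 down after the first 2 days, but 1 of 14 when sedentary replicate 6 was left out.

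The test of the difference gave 58 genes (0.446%) higher and 116 (0.893%) lower in the comparison after earlier running than in the first 2 days, below the share a p of 0.05 gives, and 0 with an adjusted p under 0.05 (limma, smallest adjusted p = 1). Without sedentary replicate 6 the balance turned, with 196 genes higher and 158 lower, and without 14-7-0 replicate 4 as well it was 186 and 189. The genes of smallest p with the same sign in both cohorts were Mir6516, Srgn, Gm9079, Dcdc2a, Snora30 and Thtpa. Srgn, a proteoglycan of secretory granules, differed by -0.18 here and 0.29 in the first 2 days (p = 0.00201). Dcdc2a, a doublecortin domain protein, differed by -0.27 and 0.09 (p = 0.00239), and all 10 14-7-2 libraries were below the 14-7-0 median. Mir6516 and Snora30 are small RNA genes listed at 0 in many libraries, with a median of 0 in 14-7-0. Among the genes described above, Akt2 differed by -0.29 and -0.10 (p = 0.0473), and Sorcs3 by -0.18 and 0.17 (p = 0.00514).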

How the data were processed

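RNA was extracted from dorsal hippocampus with RNeasy and made into poly-A TruSeq libraries, sequenced as single 50-base reads. The authors aligned reads with ELAND v2e and Bowtie, kept unique alignments with at most 2 mismatches, and deposited FPKM values made by the Tuxedo protocol (per the labels Bowtie and Cuffnorm on mm10, without versions). The annotation and Cuffnorm settings are not given in the sources used here. No scaling beyond FPKM is known, and FPKM alone do not give the read depth behind a value. The study lists read totals by sequencing index, and these were not tied to the libraries here, so counting intervals are left out.

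From these values log2(FPKM + 0.1) was tested in limma 3.58.1 (R 4.3.3; moderated, two-sided, trend) for genes whose mean over 70 libraries reached 1 FPKM, with 10 mice per group, no covariates and Benjamini-Hochberg adjustment over 12994 genes. Permutation tests (100000 resamples) used scipy 1.17.1 under Python 3.11.15, and figures matplotlib 3.10.9. The scripts were tested on simulated data. The comparison, the members and 39 gene lists were chosen with earlier results of these data known, and 2 of the lists (efflux and fatty acid synthesis) were added after the differences were seen.

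Named genes were the 12 up and 12 down with the smallest p in both fits (with and without 14-7-0 replicate 4) and the same sign in both cohorts, the 21 genes of the study list, list members with p under 0.05 or, in lists with fewer than 3 of these, the most abundant, and the 6 genes of smallest p for a difference from the first 2 days. Sparcl1, Fos, Arc and the other members of the cholesterol synthesis list are outside this rule. Some list members are counted in their lists, but their own values are not reported here. Alternatives were the pseudocount, minimum, scaling, covariates, a replicate block, library weights, a joint fit, cohorts, single libraries, Cyber-T (window of 101 genes, 10 prior degrees of freedom) and the threshold. Leaving out the 3 libraries of lowest weight, 14-7-0 replicates 0 and 3, or replicates 0 and 3 of both groups was chosen after seeing the data. Promoter windows and positions came from RefSeq on GRCm38.p6.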

Additional observations from a re-analysis of the deposited data

Results flagged for a closer look

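A library stood apart from the other 9 of its group (by Dixon's ratio of the gap to the range, at its critical value) in 20 of 164 values examined, where chance alone gives about 1 in 20, or 8.2. Of these, 6 were in 14-7-2 replicate 9 and 4 in 14-7-0 replicate 4, and this concentration was not tested. In 14-7-2 replicate 9, the scores of choroid plexus epithelium (3.33, against 0.836 at most in the others, ratio 0.473) and the level of Nsdhl (15.4 FPKM, ratio 0.505) were high. The scores of cholesterol efflux, transport and turnover genes (-0.54, ratio 0.673), microglia (-0.433, ratio 0.511), blood (-2.69, ratio 0.499) and cytosolic ribosomal protein genes (-0.561, ratio 0.487) were low there.

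In 14-7-0 replicate 4, Rbpms2 was low (0.754 FPKM, ratio 0.548) and Snhg12 high (55.2 FPKM, ratio 0.564), and the scores of neurotrophins and their receptors (ratio 0.588) and late activity-induced genes (ratio 0.475) were low. In 14-7-0 replicate 9, AMPA and NMDA receptor subunits (-0.577, ratio 0.573) and cholesterol efflux genes (-0.291, ratio 0.478) were low. In 14-7-2 replicate 3, thalamus markers were high (1.65, against 0.158 at most in the others, ratio 0.742), as was Sqle (35.7 FPKM, ratio 0.492). The others were Ano3 and Neurod6 in 14-7-0 replicate 1 (60.0 and 269 FPKM, ratios 0.575 and 0.548), Npy1r in 14-7-0 replicate 0 (23.3 FPKM, ratio 0.515), Gabra4 and Necab3 in 14-7-2 replicate 0 (31.0 and 10.6 FPKM, ratios 0.506 and 0.469) and Hnrnph3 in 14-7-2 replicate 5 (15.9 FPKM, ratio 0.494).

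Of 193 named genes, 13 changed differently from the first 2 days of running at an unadjusted p under 0.05, against 1.34% of all genes. Of the 13, 6 (Mir6516, Srgn, Gm9079, Dcdc2a, Snora30 and Thtpa) were named for their small p in this same test. The other 7 were named for a p under 0.05 in 14-7-2 against 14-7-0, which is part of this test. The count is therefore raised by the choice of genes and cannot be set against the share of all genes. None had an adjusted p under 0.05 (limma interaction over 12994 genes, smallest adjusted p = 1). As 14-7-2 minus 14-7-0 less 0-0-2 minus sedentary, the log2 values were 0.787 for Bok, 11.0 for Mir6516 and 8.05 for Snora30. They were -0.184 for Akt2, -0.204 for Thtpa, -0.247 for Pecam1, -0.295 for Tek, -0.35 for Sorcs3, -0.357 for Vtn and -0.365 for Dcdc2a. They were -0.417 for Gm9079, -0.472 for Srgn and -0.796 for Grem1. For the small RNA genes Mir6516 and Snora30, many libraries are listed at 0, so these values depend on the pseudocount.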

How the results depend on the processing

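Acvr1c, Bdnf and 23 leading genes kept their direction in the alternatives run. The leading genes were picked from these libraries for small p and the same sign in both cohorts, so for them this was largely given by the choice. Acvr1c and Bdnf were on the study list, which was chosen with these same groups. The medians of 16 of 39 gene lists changed sign in at least 1 of 8 settings, 2 of them lists with a median over 0.1 in size: thalamus (0.16) was -0.15 in cohort 2 and ependyma (-0.17) was 0.59 in cohort 1. With library weights the medians of AMPA and NMDA receptor subunits (0.03) and of activin, TGF-beta and BMP ligands (0.07) were -0.06 and -0.04. The 264 genes up were 526 with no filter on low values, 647 with library weights, 595 without the 3 libraries of lowest weight, 148 without 14-7-0 replicates 0 and 3, 54 at p under 0.01, and 168 to 423 with single libraries left out (lowest without 14-7-0 replicate 3, highest without 14-7-0 replicate 1). The 436 down were 845 with library weights, 735 without the 3 libraries, 279 in cohort 1 alone, 272 with Cyber-T, 142 at p under 0.01, and 337 to 530 with single libraries left out. Adjusted calls, 0 in the fit reported, were 16 with library weights (Zfp180, Gid4, Akt2, Acss2, Msmo1, Fdft1, Nsdhl and Idi1 among them), 2 with no filter, 2 in a joint fit of 7 groups, 1 without the 3 libraries, and 0 to 1 with single libraries left out. The cause was not tested.

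Acvr1c (0.29) missed the threshold in the joint fit (0.2906, p = 0.0654), with library weights (0.1766), in cohort 1 alone (0.1558) and without the 3 libraries (0.1883), and lay between 0.2438 and 0.359 with single libraries left out, missing it without 14-7-0 replicate 3 or 4 or 14-7-2 replicate 8 or 9. Bdnf passed it with library weights (0.1491), in cohort 2 alone (0.2452) and without 14-7-0 replicate 1, with a range of 0.1055 to 0.1774. Cholesterol synthesis genes up were 11 in cohort 1, 8 in cohort 2 and 11 without replicates 0 and 3 of both groups, and 15 to 19 with single libraries left out. Myelin genes down were 1 in the joint fit, 0 with library weights, 0 in cohort 1, 1 without the 3 libraries and 1 to 12 with single libraries left out. Genes that differed from the first 2 days (174) were 348 with library weights, 375 without 14-7-0 replicate 4 and sedentary replicate 6, 181 without 14-7-0 replicate 4 and 354 without sedentary replicate 6, the only libraries left out singly here, and the split of 58 higher and 116 lower turned to 196 and 158 without the latter.

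With a replicate block, 1 gene had an adjusted p under 0.05 (Idi1), 16 cholesterol synthesis genes rose and Bdnf passed the threshold (0.1353, p = 0.0464). The numbers do not pair the mice: deviations of equally numbered libraries had correlations of -0.268 to 0.499, and 2 of 10 were over 0.1. Of 23 leading genes, Smyd4 and Sqle missed the threshold in cohort 2 alone, Idi1 and Npc1 in cohort 1 alone, and Alox12b and Ankrd63 in the joint fit.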
